A study of Saccharomyces cerevisiae with 3 samples.

Results

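The genes described here encode the proteins of the small subunit (SSU) processome and the later assembly factors of the 40S ribosomal subunit in Saccharomyces cerevisiae, budding yeast. They are 56 genes taken by name among 6172 genes with a row in the deposited table. Each of the 56 names matched 1 row through its locus tag. The cells were of a single strain, labelled WSC1extMID2cyt, in the BY4741 background. Caspofungin, an echinocandin that blocks synthesis of the wall polymer beta-1,3-glucan, was given at 15 ng/ml for 2 hours to a portion of a culture kept at 24 °C in YEPD (rich medium), and the other portion stayed without drug. Treated and untreated cells were of this same strain, whose label names WSC1 and MID2, genes of cell wall integrity sensors, so the values hold for this strain only. RNA of the treated and the untreated portion was hybridised together on each of 3 two-colour arrays, numbered 1, 2 and 4. The treated RNA carried Cy3 on array 1 and Cy5 on arrays 2 and 4.

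The processome assembles on the long rRNA precursor in the nucleolus while RNA polymerase I is still transcribing it. The UtpA subcomplex binds the start of the precursor, UtpB and the U3 small nucleolar ribonucleoprotein (snoRNP) join it, and U3 RNA pairs with the precursor to guide the cuts that release the small subunit rRNA. GTPases, methyltransferases and RNA helicases then remodel the particle, and a last set of factors accompanies it to the cytoplasm for the final cut. In yeast the genes of this machinery are known to be transcribed together with growth rate and to be repressed together in many kinds of stress.

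The deposited values are log2 ratios of treated and untreated RNA. The log base was assumed, and the labels do not say whether a positive ratio means more or less RNA with caspofungin. Values are therefore described by their side of 0, and a ratio of 1 in size is a 2-fold difference in a direction that is not settled. Arrays 1, 2 and 4 gave values for 2520, 1924 and 741 genes. All genes together had a median ratio of -0.20 on array 1. Their median was -0.22 for array 2 and 0.09 for array 4, so ratios relative to each array's median are given where this shift matters. Over 585 genes shared by every array, Pearson's r of array 2 was 0.50 with array 1 and 0.53 with array 4, while arrays 1 and 4 gave r = 0.05. These points are genes, which are not independent replicates. Of 4 MATa marker genes, the mating type of BY4741, STE2 and BAR1 had at least 2 values, MFA2 had a value on array 2 alone and MFA1 had none. The 3 MAT alpha marker genes MF(ALPHA)1, MF(ALPHA)2 and STE3 had no value on any array, like 3471 of the 6172 genes. MATALPHA2, which is on neither list, had -0.04 on array 1 alone. A ratio from a bulk culture does not tell a change in each cell from a change in part of the cells.

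The 40S assembly genes lay mostly on the negative side of the deposited ratios. Of 35 members measured on 2 or 3 arrays, 29 were negative on every array that measured them, 3 were positive on every array and 3 had arrays on both sides. Among all 1899 genes measured on 2 or 3 arrays, 45.9% were negative and 18.5% positive on every array measured. The median of the members' mean ratios was -0.57, against -0.19 for all genes. Relative to each array's own median it was -0.41, against -0.0089 for all genes, and 25 of the 35 members then stayed negative on every array. The 4 that no longer did were NOP14, UTP18, DIP2 and NOB1. The share of all genes negative on every array after centring was not counted, and the 45.9% holds for uncentred ratios. A value on any array was present for 40 members, of which 5 had a single value. The remaining 16 members had none.

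**Figure D1:**
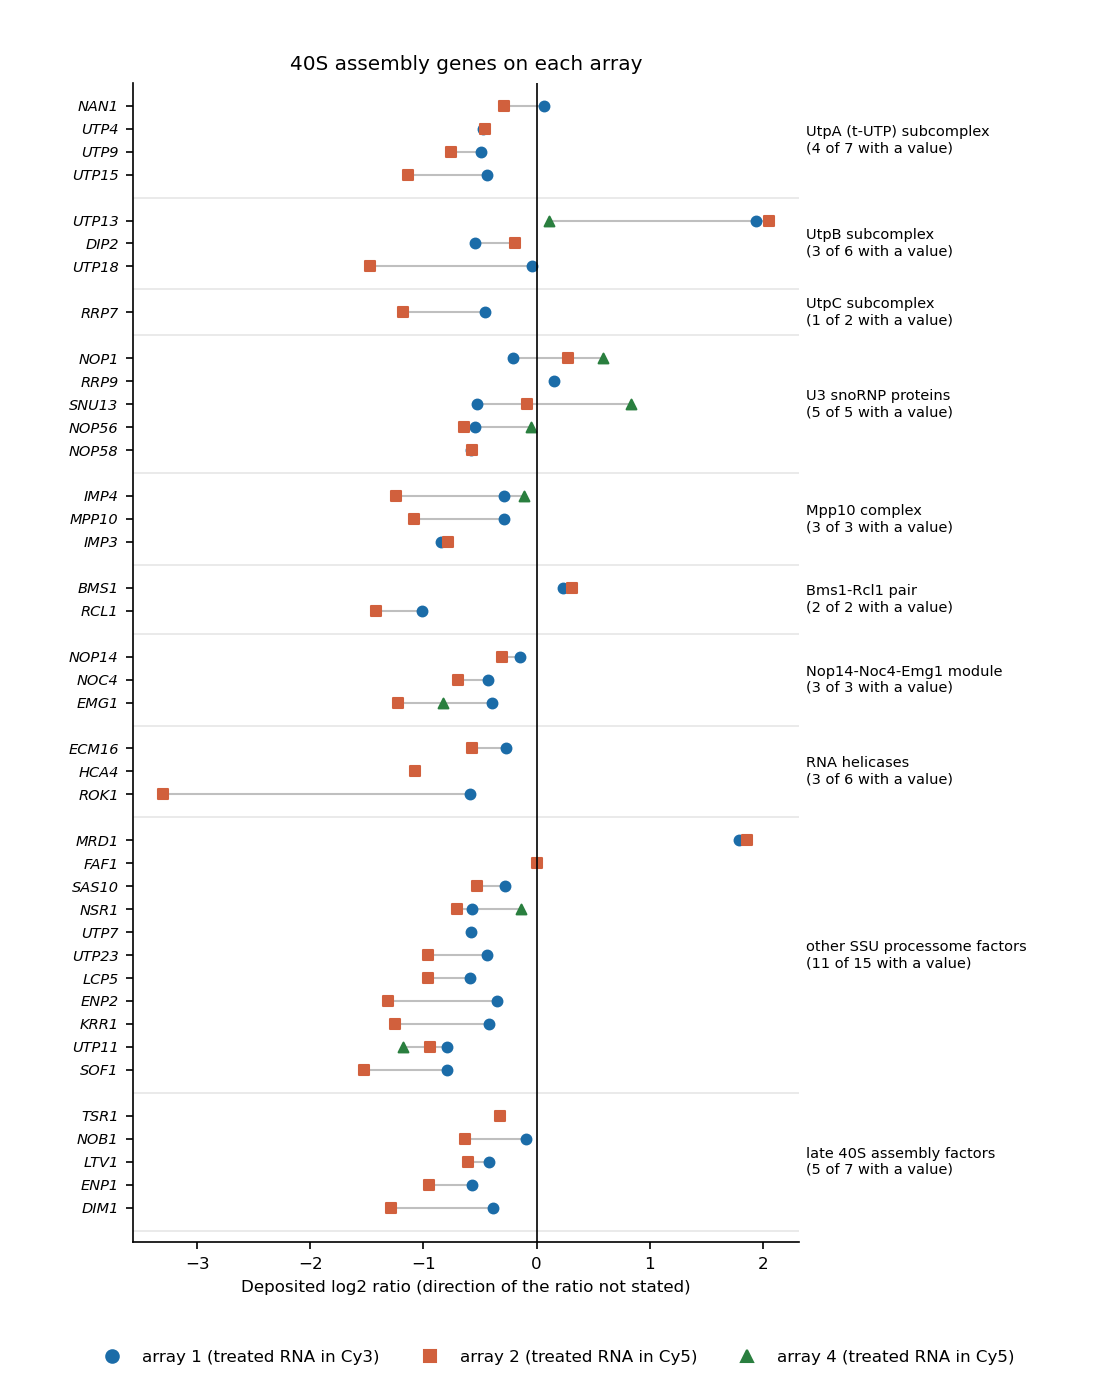
Deposited log2 ratio (x axis) of the 40 members with a value, in rows grouped by role, with a symbol for each array and a grey line from the lowest to the highest array of a gene. Most symbols lie left of 0, while UTP13 and MRD1 lie near 2 on arrays 1 and 2, and ROK1 has the lowest value, -3.30 on array 2.

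Coverage by the arrays set which members could be read. Array 1 measured 37 members and array 2 measured 38, or 66.1% and 67.9% of the 56, against 40.8% and 31.2% of all genes. Array 4 measured 8 members, 14.3%, against 741 of all 6172 genes. All 35 members with at least 2 values were measured on arrays 1 and 2. The members had a median of -0.43 on array 1, -0.73 on array 2 and -0.08 for array 4. On array 1, 32 of 37 values were negative, on array 2, 33 of 38, and on array 4, 5 of 8. Among all genes 1701 of 2520, 1299 of 1924 and 321 of 741 values were negative on these arrays. Below the median of all genes were 29, 31 and 5 of the members' values. The members without any value were longer genes, with a median length of 2454 bp in RefSeq, against 1221 bp for all genes without a value. Those with a value on every array had a median of 928.5 bp, against 912 bp for all such genes.

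**Figure D2:**
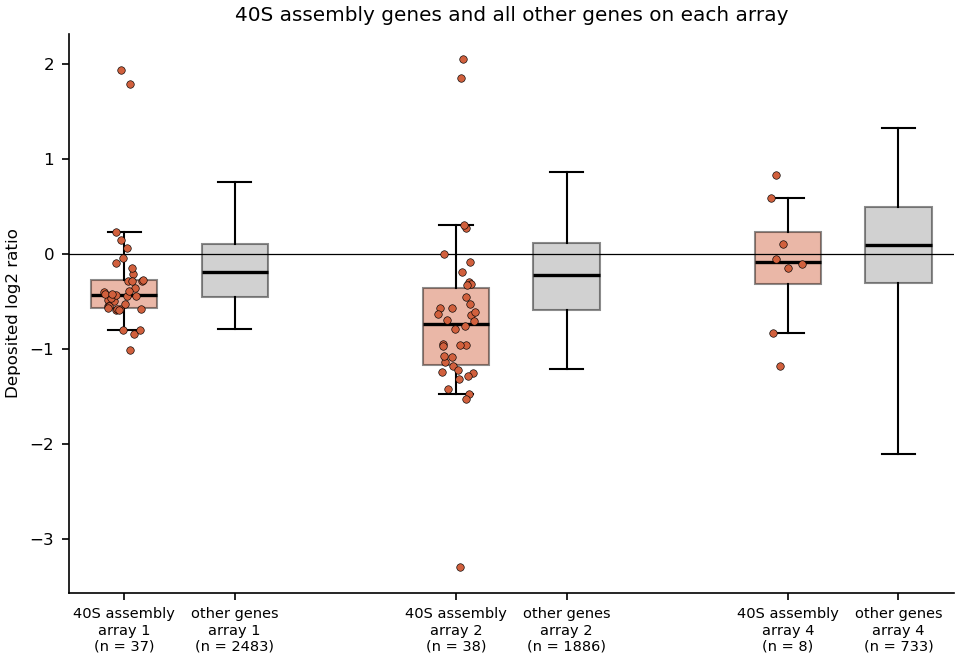
Deposited log2 ratios (y axis) of the 40S assembly genes and of all other genes on each array. Boxes span the quartiles with the median as a black line, whiskers span the 5th to the 95th percentile, and points are single members. The members' box lies lower than that of the other genes on arrays 1 and 2, and on array 4 it rests on 8 genes.

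The UtpA subcomplex, also called t-UTP for its link to rDNA transcription, was covered for 4 of 7 members. UTP15 had -0.44 on array 1 and -1.14 on array 2, the lowest mean of the subcomplex at -0.79 ± 0.50 (SD, n = 2 arrays, as for all members without a value on array 4). UTP9 had -0.49 and -0.76, and UTP4 had -0.48 and -0.45, so these 3 genes were negative on both arrays. NAN1, which encodes the subunit also named Utp17, had 0.06 on array 1 and -0.29 on array 2, on both sides of 0. The median of the 4 means was -0.55, or -0.33 relative to each array's median. UTP5, UTP8 and UTP10 had no value.

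UtpB, a set of mostly beta-propeller proteins that joins U3 on the precursor, was covered for 3 of 6 members, and these spread most widely of the Utp subcomplexes. UTP13 had 1.94 on array 1, 2.05 on array 2 and 0.11 on array 4, a mean of 1.37 ± 1.09 (SD, n = 3 arrays). Its values on arrays 1 and 2 exceeded those of 99.2% of all genes measured there, while on array 4 it stood at the middle, above 51.0% of genes. DIP2, the subunit also named Utp12, had -0.54 and -0.19. UTP18, whose protein brings the exosome's helicase to the particle, had -0.04 on array 1 and -1.47 on array 2. PWP2, UTP6 and UTP21 had no value. The UtpB median of -0.37, or -0.16 relative to each array's median, was that of DIP2 alone, and array 4 measured no UtpB gene other than UTP13.

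Of the 2 UtpC genes among the members only RRP7 was measured, at -0.46 on array 1 and -1.18 on array 2. UTP22, its partner, had no value. On array 1 the medians of UtpA and UtpB and the single UtpC value were -0.46, -0.04 and -0.46. The array 2 values were -0.61, -0.19 and -1.18. UtpB was nearest to 0 on both arrays, with UTP13 positive and UTP18 or DIP2 below it, and with 4, 3 and 1 genes the subcomplexes overlapped: each UtpA value lay between the lowest and the highest UtpB value of its array. The difference between subcomplexes was not tested.

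The U3 snoRNP proteins had a value for 5 of 5 genes, and 3 of these were measured on every array. NOP56 and NOP58 form the scaffold of the particle. NOP56 had -0.55, -0.65 and -0.05 on arrays 1, 2 and 4, and NOP58 had -0.58 and -0.57 on arrays 1 and 2. Both were negative on every array measured. NOP1, the methyltransferase fibrillarin, had -0.20, 0.28 and 0.59 on arrays 1, 2 and 4. SNU13, which binds the kink-turn of U3 and also of a spliceosomal RNA, had -0.53, -0.08 and 0.83. These 2 genes changed side between arrays, with array 1 lowest and array 4 highest for each. RRP9, the protein particular to U3 among these, was measured on array 1 alone, at 0.15. The median of the 4 means was -0.17, or -0.059 relative to each array's median, and NOP1 averaged 0.22 ± 0.40 and SNU13 0.07 ± 0.69 (SD, n = 3 arrays each), both smaller than their spread.

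The Mpp10 complex, which holds U3 and the precursor together, was negative throughout. IMP3 had -0.84 and -0.79 on arrays 1 and 2. IMP4 had -0.29, -1.24 and -0.11 on arrays 1, 2 and 4, and MPP10 had -0.29 and -1.08 on arrays 1 and 2. The median of the 3 means was -0.68, or -0.47 relative to each array's median.

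The GTPase BMS1 and its binding partner RCL1 lay on opposite sides. RCL1 had -1.01 on array 1 and -1.42 on array 2, a mean of -1.21 ± 0.29, and it was the only member at -1 or lower on both arrays. The share of all genes at -1 or lower on both was not counted. BMS1 had 0.23 and 0.31, a mean of 0.27 ± 0.05. Bms1 protein loads Rcl1 onto the processome, and their transcript ratios rest on 2 values for each gene. How often any 2 genes lie this far apart was not counted. In the Nop14-Noc4-Emg1 module, EMG1, which methylates the small subunit rRNA, had -0.39, -1.22 and -0.83 on arrays 1, 2 and 4. NOC4 had -0.43 and -0.69, and NOP14 had -0.15 and -0.31, close to the median of all genes on each of these arrays.

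RNA helicases were measured for 3 of 6 members, and all their values were negative. ROK1 had -0.59 on array 1 and -3.30 on array 2, the lowest single value of any member and below all but 0.42% of the genes of array 2. Its mean of -1.94 ± 1.92 was about as large as its spread. ECM16, also named Dhr1, the helicase that removes U3 from the particle, had -0.27 and -0.57. HCA4, also named Dbp4, had -1.07 on array 2 alone. DHR2, DBP8 and FAL1 had no value.

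Among 15 other processome factors, 9 had at least 2 values, and 8 of these were negative on every array. UTP11 was the most even of the members on every array, with -0.80, -0.94 and -1.18 on arrays 1, 2 and 4 and a mean of -0.97 ± 0.20 (SD, n = 3 arrays). SOF1, a beta-propeller protein gene, had -0.80 and -1.53. NSR1, the yeast relative of nucleolin, had -0.57, -0.71 and -0.14 on arrays 1, 2 and 4. KRR1, ENP2, LCP5, UTP23 and SAS10 had means between -0.84 and -0.40. The exception was MRD1, which encodes a protein with several RNA recognition motifs that binds the precursor. MRD1 had 1.79 on array 1 and 1.86 on array 2, a mean of 1.82 ± 0.05, above 99.1% and 99.0% of all genes on these arrays. UTP7 had -0.58 on array 1 alone, and FAF1 had a deposited value of exactly 0 on array 2 alone. UTP14, UTP20, BFR2 and RRP5 had no value.

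The late factors, which ride on the pre-40S particle, were negative on both arrays for all 4 members with 2 values. DIM1, the dimethyltransferase of the small subunit rRNA, had -0.39 on array 1 and -1.28 on array 2, the lowest mean of the 4. ENP1 had -0.57 and -0.95, and LTV1 had -0.42 and -0.61. NOB1, the nuclease that makes the final cut, had -0.10 and -0.63, the highest mean of the 4. TSR1, a GTPase-like factor, had -0.32 on array 2 alone. RRP12 and PNO1 had no value. The median of the 4 means was -0.64, or -0.43 relative to each array's median. On array 1 NOB1 lay above the median of all genes.

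Single genes were tested against a ratio of 0 with limma. The study describes 2 cultures, each hybridised in both dye orientations, so 2 of the 3 arrays share a culture. Arrays 2 and 4 have the same orientation, which leaves array 1 paired with array 2 or with array 4. The labels do not say which, so the larger p-value of these 2 pairings was kept. None of the 8 members with values on every array passed (adjusted p from 0.378 to 0.993 by limma with Benjamini-Hochberg adjustment), where 0.0% of all 585 genes tested passed. At an unadjusted p up to 0.05 were 2 of the 8, UTP11 and EMG1, and 11.5% of all genes. When each array counted as a separate replicate over genes with at least 2 values, 48 genes passed, 34 of them with positive and 14 with negative ratios. The members among them were MRD1, positive (limma adjusted p = 0.013), and UTP11, negative (limma adjusted p = 0.038). These are 1 of 35 members on each side, where 1.79% of all genes passed on the positive side and 0.737% on the negative side. With each array centred on its median, 64 positive and 14 negative genes passed, and UTP11 did not (limma adjusted p = 0.058, with a range of 0.023 to 0.999 over 7 alternatives). Leaving out array 1 or array 2 also ended the UTP11 call (limma adjusted p = 0.114 and 0.847). MRD1 passed after centring (limma adjusted p = 0.00469, with a range of 3.9e-05 to 0.999 over 5 alternatives). UTP13 did not pass in this fit (limma adjusted p = 0.112) and did without array 4 (1.4e-05).

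With arrays 1 and 2 alone, 13 of 35 members passed on the negative side and 2, UTP13 and MRD1, on the positive side. Of all 1863 genes with both values, 6.44% passed on the negative side and 4.78% on the positive side. These ratios were not centred, while all genes had medians of -0.20 on array 1 and -0.22 on array 2. This fit was not repeated on centred ratios. The 13 were ROK1, RCL1, SOF1, UTP11, IMP3, RRP7, KRR1, DIM1, ENP2, EMG1, UTP15, ENP1 and LCP5. Arrays 1 and 2 have opposite dye orientations and may come from the same culture. In that case they hold 1 biological replicate, and these p-values hold no spread between cultures. limma also draws each gene's spread towards that of all genes, so a gene can pass although its 2 arrays differ widely. ROK1 passed with -0.59 on array 1 and -3.30 on array 2, where its SD of 1.92 was about as large as its mean of -1.94.

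The members' ratios were larger in size on array 2 than on array 1. All genes also spread more widely on array 2, with an SD of 0.73 against 0.55 on array 1. On array 2, 12 of 35 members were at -1 or lower, where 7.41% of all genes were. On array 1 RCL1 alone was, and the share of all genes at -1 or lower there was not counted. At 1 or higher on both arrays were 2 members, UTP13 and MRD1, where 2.36% of all genes were. A lower value on array 2 than on array 1 was found for 26 of 35 members and for 57.1% of all genes. The median difference, array 2 minus array 1, was -0.30 for members and -0.09 for all genes. The treated RNA was in Cy5 on array 2 and in Cy3 on array 1, and the part of the dye in this difference was not tested. Across the 35 members Pearson's r between these arrays was 0.77 and Spearman's rho 0.41, and without UTP13 and MRD1, left out after their values were seen, r was 0.38 and rho 0.29. The points share their arrays and are described only. The SD between a member's arrays ranged from 0.010 for NOP58 to 1.92 for ROK1, with a median of 0.29, against 0.28 for all genes.

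**Figure D3:**
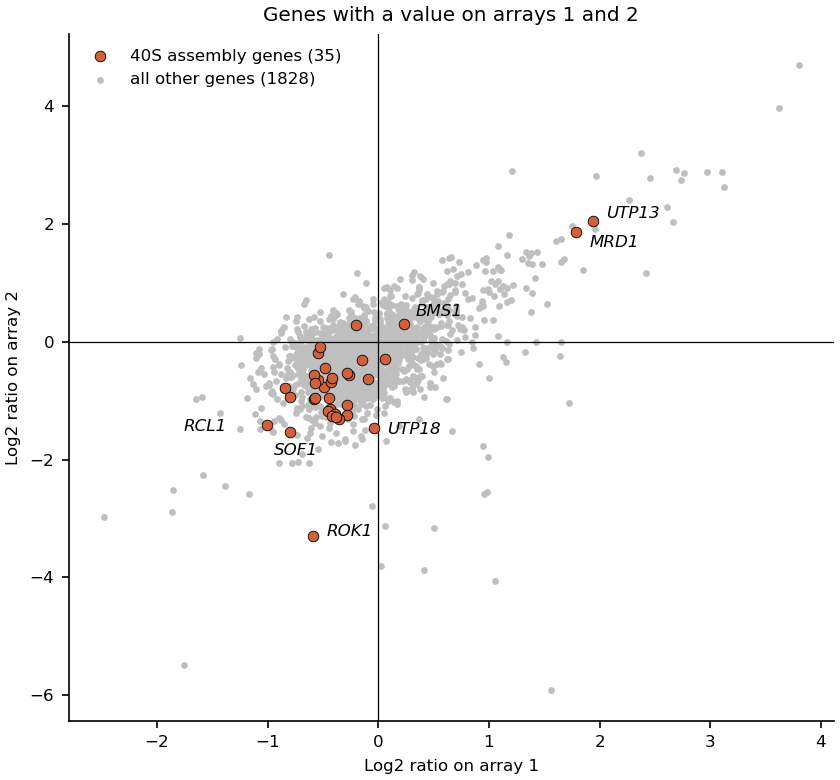
Log2 ratio on array 1 (x axis) against array 2 (y axis) for 35 members (filled red circles) and 1828 other genes (grey points). The members gather at negative values on both arrays, with ROK1 far below on array 2 and UTP13 and MRD1 at the upper right.

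On array 4 the few members measured lay nearer to 0 in the median. Over the 8 members measured by every array, the medians for arrays 1, 2 and 4 were -0.46, -0.68 and -0.08, against -0.14, -0.14 and 0.09 for all 585 such genes. UTP11 and EMG1 were at least as negative on array 4 as on array 1. NOP56, IMP4 and NSR1 stayed negative, between -0.14 and -0.05 on array 4. NOP1 and SNU13 were positive there, and UTP13 had 0.11. Without array 4 the mean of SNU13 lay on the other side of 0, at -0.31.

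Genes around the same machinery were set beside the members. Of 26 further 40S assembly genes, 8 had at least 2 values, and 5 of these were negative on every array, with a median of -0.55, or -0.34 relative to each array's median. UTP30 had the lowest mean of these, at -1.34 ± 1.02, and NOP19 the highest, at -0.05 ± 0.14 (n = 2 arrays each). In the H/ACA snoRNP, which makes pseudouridine, CBF5 averaged -0.63 ± 0.29 (n = 3 arrays) and NHP2 -0.41 ± 0.29 (n = 2 arrays). The 60S assembly factors, the counterpart for the large subunit, were negative on every array for 33 of 37 genes and positive for 0, with a median of -0.59, or -0.38 relative to each array's median, near those of the 40S members. On array 1 their median was -0.34 and on array 2 it was -0.92. Of those measured by every array, NIP7 was lowest at -0.80 ± 0.29 and DRS1, a helicase gene, highest at 0.43 ± 0.95 (SD, n = 3 arrays each). In the limma test over genes with at least 2 values, 0 genes of these 3 lists passed. At an unadjusted p up to 0.05 were 4 of 8 further 40S genes, 1 of 2 H/ACA genes and 17 of 37 of the 60S genes, against 21 of 35 members and 23.9% of all genes. Whether the 40S members differ from them was not tested.

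The genes of the ribosomal proteins themselves lay nearer to 0 on arrays 1 and 2. The small subunit list had medians of -0.26 and -0.26 there, the large subunit list -0.35 and -0.31, and the members -0.43 and -0.73. On array 4 these medians were -0.12, 0.06 and -0.08. The means rest on unlike arrays, since 34 of 42 small and 38 of 48 large subunit genes were on every array, against 8 of 35 members. Genes of the small subunit proteins, which the members assemble, had a median of -0.25 over 42 genes, with 26 negative and 0 positive on every array. Among those on every array RPS24B was lowest at -0.73 ± 0.51 and RPS15 highest at 0.15 ± 0.46 (SD, n = 3 arrays each). Genes of the large subunit proteins had a median of -0.26 over 48 genes, from -0.89 ± 0.39 for RPL23B to 0.13 ± 1.16 for RPL26B among those on every array. Relative to each array's median, the medians of both lists were -0.12. The 3 RNA polymerase I genes with 2 or more values were negative on each of their arrays, from -0.71 for RPA49 to -0.41 for RPA12. Of the same list, RPA14 had 1.25 on array 4 alone and RRN3 had -0.34 on array 1 alone. Of the regulators of ribosome synthesis, TOD6, which encodes a repressor of assembly genes, averaged -0.34 ± 0.0026 (n = 2 arrays), and DOT6, its paralogue, 0.20 ± 0.36 (n = 3 arrays). In the same limma test 0 genes of these 4 lists passed, and at an unadjusted p up to 0.05 were 4 of 42 small subunit and 8 of 48 large subunit protein genes, 1 of 3 polymerase genes and 0 of 4 regulators.

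Genes known to be induced by wall stress through the kinase Slt2 lay on the other side. There were 12 wall stress genes measured on 2 or 3 arrays, with a median of 1.11, and 11 of them were positive on each of their arrays. GSC2, a glucan synthase gene, was lowest among those on every array at 0.35 ± 0.17 and the wall protein gene NCW2 highest at 1.88 ± 0.10 (SD, n = 3 arrays each). NCW2 had 1.96 on array 1 and 1.91 on array 2, next to the ratios of UTP13 and MRD1 on these arrays. In the limma test over genes with at least 2 values, 4 of the 12 passed, all of them positive. These wall stress genes were chosen with their values known, so their side supports nothing by itself.

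**Figure D4:**
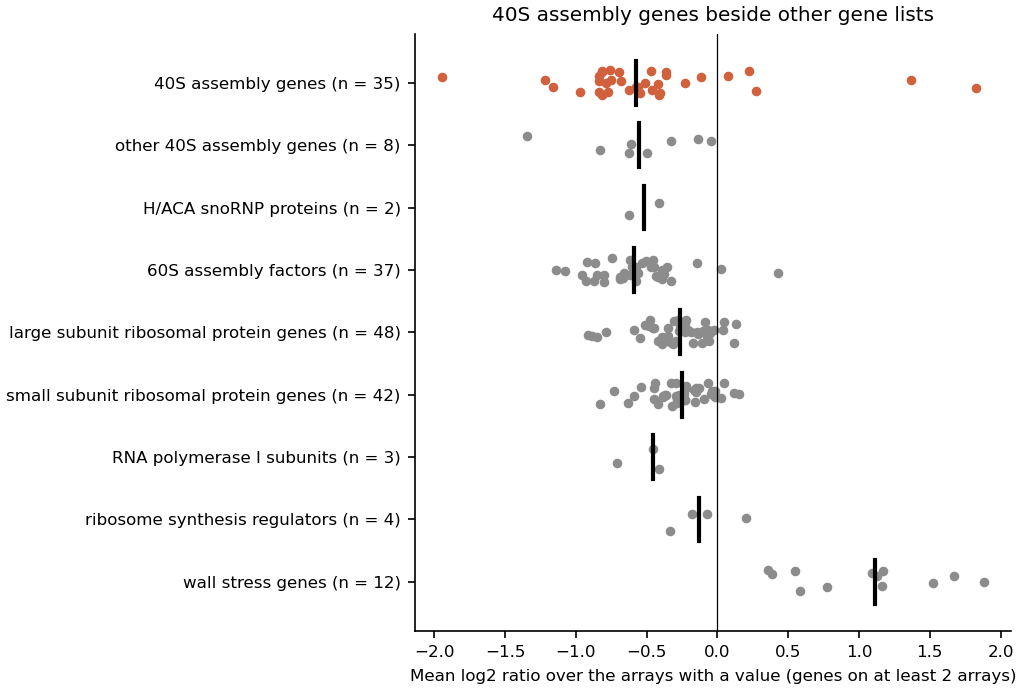
Mean log2 ratio over the arrays with a value (x axis) for genes on at least 2 arrays, by list (rows), with each gene as a point and the list's median as a black bar. The medians of the 40S and 60S assembly lists lie at -0.57 and -0.59, those of the ribosomal protein lists at -0.25 and -0.26, and that of the wall stress genes at 1.11.

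**Figure D5:**
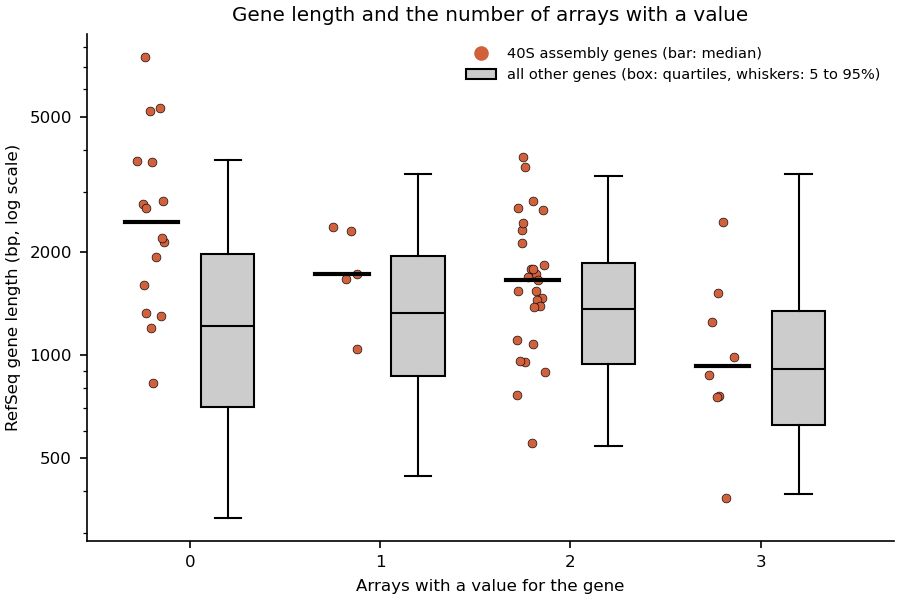
RefSeq gene length in bp (y axis, log scale) by the number of arrays with a value (x axis). Red points are the 56 members with their median as a bar, and grey boxes are all other genes with a length (quartiles, whiskers at the 5th and 95th percentile). The members without a value reach the greatest lengths, up to 7482 bp for UTP20.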

How the data were processed

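The table deposited by the authors holds log2 ratios in 3 columns. Their log base (taken as 2), normalization, spot filter and direction were not given in the sources used here. Array 3 was not analysed here. Spot intensities were not used, and the few arrays limit the precision. Of 6209 rows, 5654 were matched by locus tag and 57 by synonym to RefSeq's R64 gene table, 496 kept the name in the file and 2 control rows were left out. Rows of a gene were averaged. All columns were taken to run the same way, because array 1 correlated positively with array 2 (r = 0.50). Its r of 0.05 with array 4 cannot tell the sign. limma 3.58.1 (R 4.3.3; lmFit, eBayes) tested ratios against 0 in fits over all genes with Benjamini-Hochberg adjustment and a threshold of 0.05: over 585 genes on 3 arrays, with array 1 averaged with array 2 or with array 4 and the larger p kept, and over 1899 genes on at least 2 arrays, each array separate. Where arrays share a culture, the second fit's p-values are too small. Simulated data took their spread from the genes on 3 arrays. They assumed that arrays 1 and 2 share a culture and that culture and array contribute equal variance. In that setting both fits found most changes well above 2-fold and missed 2-fold changes. Far more genes were changed there than passed in the data, which eases the adjustment, so the fits may find fewer changes in the data. In the data 0 of 585 genes passed the first fit, and NCW2, at 1.88 ± 0.10 over 3 arrays, was among those that did not. The second fit's false calls there exceeded the share the threshold allows. Genes on arrays 1 and 2 alone may spread otherwise, so these results may not hold for them. A member that did not pass is not shown to be unchanged. Means ± SD are over arrays and mix technical with biological spread. Members, lists and tests were chosen with earlier results of these data known. Every member was accounted for; named genes of other lists were the highest and the lowest of a list, chosen on all 3 arrays or, below 3 such genes, on at least 2. The planned look at promoter motifs was not made, since no sequences were used here.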

Additional observations from a re-analysis of the deposited data

How the results depend on the processing

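Centring, scaling, the genes included and leaving out any 1 array kept the members' median ratio of -0.57 on the negative side, from -0.64 to -0.25, and turning the sign of array 1 brought it to -0.18. The count of 29 members negative on every array was 1 with array 1 turned and 5 over the 8 members on all 3 arrays, and lay between 5 and 30 with 1 array left out, where 8 members remained without array 1 or array 2. The count of genes past the limma test on 3 arrays, 0, was 17 after scaling, 2 with 3 separate replicates, 2 with a dye term, and 0 to 209 with 1 array left out; members passed in none of these but the 209 without array 4. The count over genes on at least 2 arrays, 48, was 78 after centring, 0 with array 1 turned, and 0 to 209 with 1 array left out. The UtpB median of -0.37 was 0.076 with array 1 turned and -0.37 to 1.08 with 1 array left out, where UTP13 alone remained without array 1 or array 2. The U3 snoRNP median of -0.17 was 0.18 with array 1 turned, 0.073 with RRP9 included, and -0.44 to 0.37 with 1 array left out. SNU13 averaged -0.0096 after scaling, -0.077 with a dye term, and -0.31 to 0.37 with 1 array left out. The causes were not tested. Of 88 alternatives for the 8 members on every array, none of which passed the test on 3 arrays, 82 kept side and call, 3 passed the threshold and 3 changed side. Of 60 alternatives for the medians of the role groups, 44 moved them by less than the spread between arrays, 9 by more, and 7 changed their side; centring moved UtpA from -0.55 to -0.33 and UtpB from -0.37 to -0.16. Each array holds both treated and untreated RNA, so testing its ratios against 0 already uses this pairing. With 1 group of arrays, no further pairing was possible. Without spot intensities, it is unknown how far each value stood above background.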

Other observations

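Both genes next to UTP13 were negative: RSA3 had -0.61 on array 1 and -0.71 on array 2, and IFH1 had -0.17 and -0.18. At 2 places from UTP13, CCC1 had -0.55 and UCC1 had 0.24, each on array 1 alone. The genes next to MRD1, DBF20 and PIS1, had no value. At 2 places from MRD1, RPC40 had -0.34, -0.94 and -0.30 on arrays 1, 2 and 4, and ALE2 had no value. These neighbours were looked at after the values of UTP13 and MRD1 were seen. MATa marker genes lay on the negative side: STE2, the alpha-factor receptor gene, had -0.88, -1.32 and -0.18 on arrays 1, 2 and 4, and BAR1, the gene of the protease that degrades alpha-factor, had -0.96 and -1.51 on arrays 1 and 2.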
